A study of Mus musculus with 24 samples.

Results

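Genes of bile acid synthesis and conjugation, Cyp7a1, Cyp8b1, Cyp27a1, Cyp7b1, Hsd3b7, Akr1d1, Amacr, Slc27a5, Baat and Nr0b2, were followed in the livers of 24 mice. They were taken by name, and all 10 were among the 18820 genes measured. Hsd3b7 had 2 probe sets, of which the one with the higher mean over the 24 arrays was used, and each of the other genes had 1. Values are log2 expression levels, so that a difference of 1 is a doubling, and the level of one gene is not set against that of another.

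Hepatocytes turn cholesterol into bile acids along a pair of routes. The classic route starts with Cyp7a1, its rate-limiting hydroxylase. The alternative route starts with the mitochondrial sterol hydroxylase Cyp27a1 and continues with the oxysterol hydroxylase Cyp7b1. Hsd3b7 and Akr1d1 then modify the sterol rings, and Cyp8b1 adds the hydroxyl group that turns the product into cholic acid. Amacr, a racemase, serves the peroxisomal shortening of the side chain. Slc27a5 activates bile acids with coenzyme A and Baat joins them to taurine or glycine. Nr0b2, the small heterodimer partner SHP, is a corepressor that is induced through the bile acid receptor FXR and is known to restrain Cyp7a1 and Cyp8b1.

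The mice formed 8 groups of 3 on a C57BL/6 background, with gene deletion by Cre driven by the albumin promoter, which is active in hepatocytes. NEMO/JNK knockouts, labelled as lacking NEMO, JNK1 and JNK2 in hepatocytes, were set against mice labelled control, both untreated and aged 52 weeks. JNK knockouts, which carry floxed Jnk1 alleles and a Jnk2 null allele that is not limited to hepatocytes, were set against mice labelled control 28 days after bile duct ligation, a surgical block of bile flow. The same genotypes were compared 40 days after diethylnitrosamine (DEN), a liver carcinogen, and the ages of these treated mice are not given. NEMO/JNK1 knockouts were set against NEMO knockouts at 8 weeks, with no mice labelled control at that age. The labels name NEMO knockouts and mice with floxed NEMO alleles as the controls of the NEMO/JNK line, and do not say which of these a liver labelled control was.

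Replicates were separate animals with different identifiers. Pearson's r between arrays of a group was 0.966 to 0.987 over the probe sets. The targeted genes did not follow the labels throughout. Mapk8, which encodes JNK1, differed by -0.87 in NEMO/JNK knockouts and by -1.02 in ligated JNK knockouts from livers labelled control (limma adjusted p = 0.00259 and 0.0299). The Mapk8 differences of -0.64 after DEN and -0.61 at 8 weeks did not pass (adjusted p = 0.985 and 0.602). Ikbkg, which encodes NEMO, fell by 0.85 at 52 weeks (adjusted p = 0.0043) and differed by -0.15 at 8 weeks, where both groups lack NEMO by label. Mapk9, which encodes JNK2, lay between 2.82 and 3.26 in the 9 NEMO/JNK and JNK knockout livers and between 2.91 and 3.51 in the 9 livers labelled control. It lay between 7.99 and 8.53 in the 6 livers of 8 weeks, so that the livers labelled control lacked the Mapk9 signal as the knockouts did. One liver, JNK knockout replicate 3 after DEN, had Xist at 10.38, against 2.16 to 3.87 in the other 23 livers. Its Y-linked Uty, Kdm5d and Eif2s3y stood at 2.81, 3.66 and 2.8, against 5.82 to 6.93, 5.86 to 6.81 and 6.61 to 7.96 in the others. The labels give no sex, and values without this liver are given for the tests, ranges and correlations that use it, a choice made for the ranges and correlations after its values were seen.

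The genes lie on 7 mouse autosomes in GRCm38.p6. Cyp7a1 (probe set 10511375) spans bases 6265612 to 6275632 of chromosome 4, which also holds Baat (10512895) at 49489416 to 49507915 and Nr0b2 (10508887) at 133553376 to 133556686. Cyp27a1 (10347481) lies on chromosome 1 at 74713148 to 74737897, Cyp7b1 (10497381) on chromosome 3 at 18071944 to 18243890, and Akr1d1 (10537306) on chromosome 6 at 37529978 to 37574921. Chromosome 7 holds Slc27a5 (10560045) at 12988346 to 12998192 and Hsd3b7 (10557782) at 127800609 to 127803802. Cyp8b1 (10597875) lies on chromosome 9 at 121914356 to 121916305 and Amacr (10423090) on chromosome 15 at 10981756 to 10996624. The part of each transcript that the probes cover was not analysed here.

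The 250 bases before the transcription start were read from RefSeq (GRCm38.p6) for the 5 genes with an entry, Cyp27a1, Nr0b2, Akr1d1, Hsd3b7 and Cyp8b1. Those of Cyp8b1, the gene with the widest range over the groups, and of Nr0b2, its corepressor, are shown from 5′ to 3′ on the strand of the gene, with any match to a searched motif in capitals. The Cyp8b1 stretch is chr9:121916306-121916555 on the minus strand and the Nr0b2 stretch is chr4:133553126-133553375 on the plus strand. The Cyp27a1 stretch, bases 74713285 to 74713534, lies within the gene span given above, and the Akr1d1 stretch, 37529923 to 37530172, lies partly within its own.
Cyp8b1: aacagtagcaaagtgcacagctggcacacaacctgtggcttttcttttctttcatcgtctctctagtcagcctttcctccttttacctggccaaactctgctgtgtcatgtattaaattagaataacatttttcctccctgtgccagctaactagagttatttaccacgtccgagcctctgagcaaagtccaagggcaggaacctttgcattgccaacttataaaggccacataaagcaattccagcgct
Nr0b2: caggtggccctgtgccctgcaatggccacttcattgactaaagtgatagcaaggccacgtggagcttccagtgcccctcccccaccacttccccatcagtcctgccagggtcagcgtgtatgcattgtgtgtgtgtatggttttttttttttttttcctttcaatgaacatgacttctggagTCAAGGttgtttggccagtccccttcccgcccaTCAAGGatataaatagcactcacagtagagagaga
Searched on both strands were TCAAGG, a core of sites for the liver receptor homolog NR5A2, AGGTCA, the nuclear receptor half-site, and GTTAAT, a core of HNF1 sites. Nr0b2 held TCAAGG at 68 and 35 bases before the start, counted to the first base of the match on the strand of the gene. Akr1d1 held TCAAGG in reverse at 213 bases, overlapping AGGTCA in reverse at 210 bases, and a further AGGTCA at 232 bases. The printed Cyp8b1 stretch, Cyp27a1 and Hsd3b7 held none of the 3 strings. TCAAGG was thus found in 2, AGGTCA in 1 and GTTAAT in 0 of the 5 stretches, against 12.5, 14 and 6.43 percent of 32851 mouse promoters of the same length. A string match is a description of these letters and not a binding site.

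**Figure D1:**
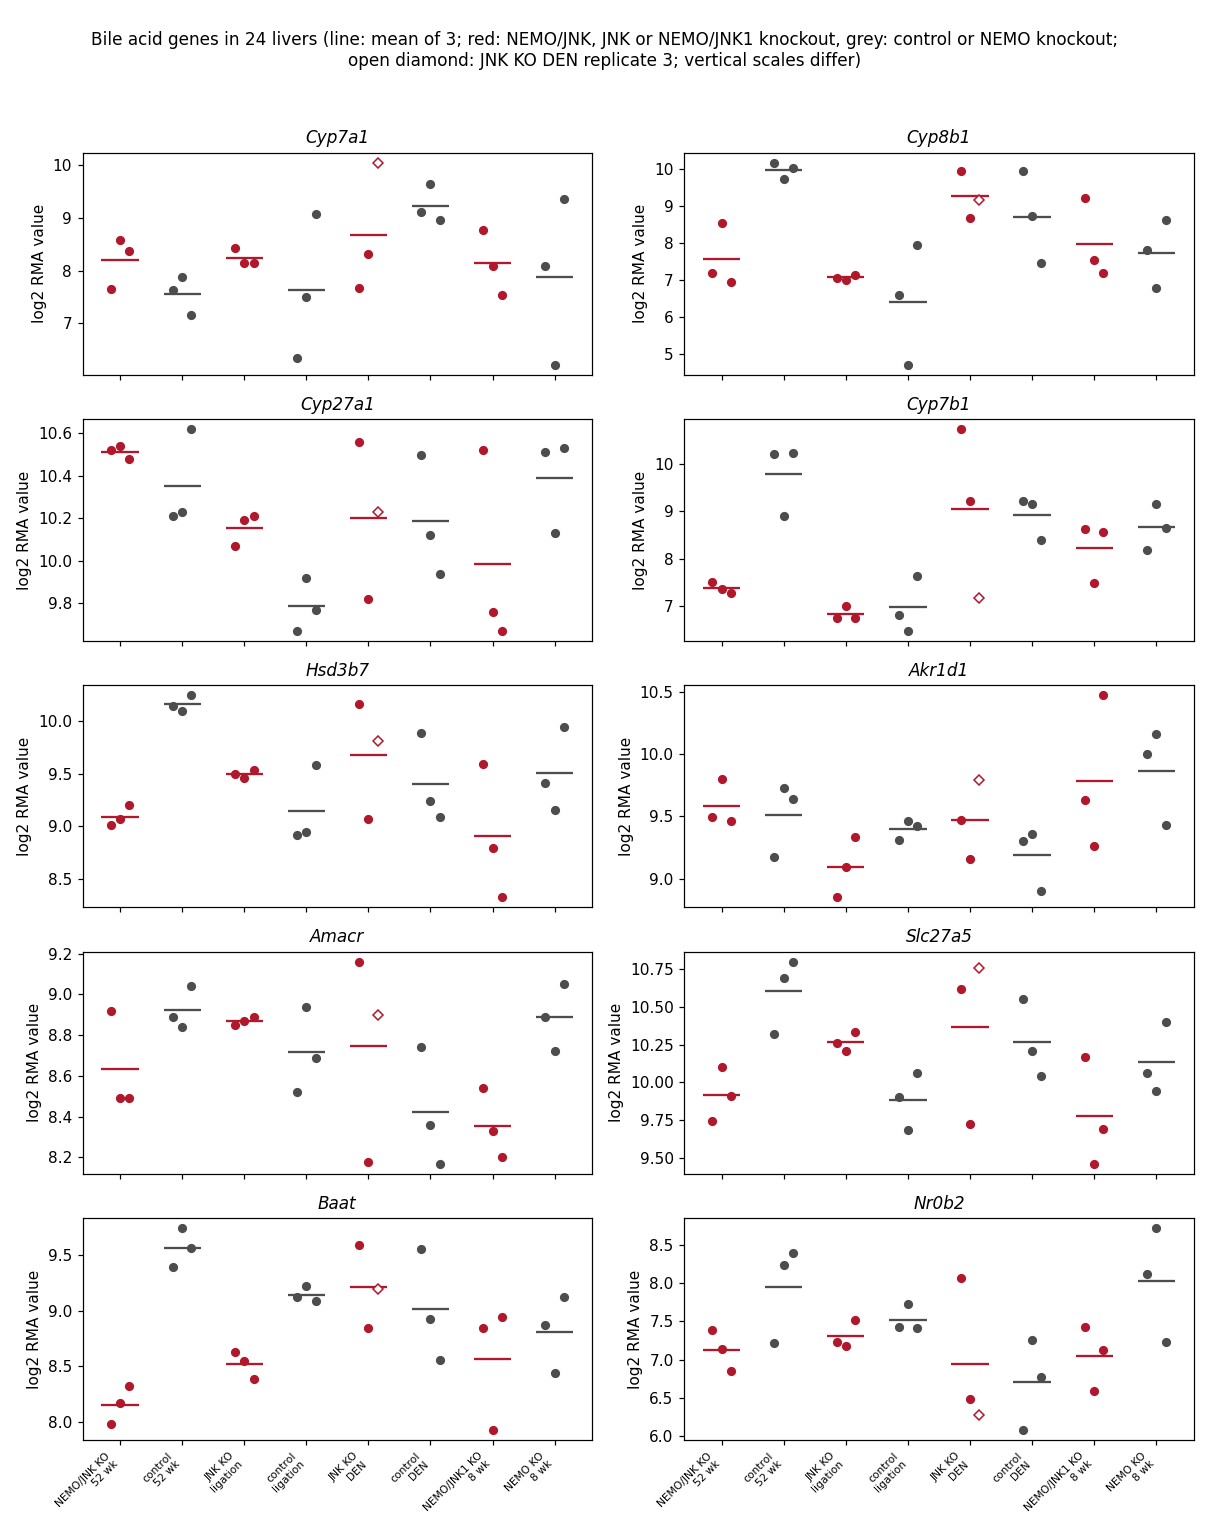
Log2 expression (vertical axes, which differ in scale) of the 10 genes in each of the 24 livers, with the 8 groups along the horizontal axis. Points are livers, lines are means of 3, and the open diamond is the JNK knockout liver with high Xist. Cyp8b1, Cyp7b1, Hsd3b7, Slc27a5 and Baat in the NEMO/JNK knockouts at 52 weeks lie below all 3 livers labelled control of that age.

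At 52 weeks the NEMO/JNK knockouts had lower levels of 5 of the 10 genes than mice labelled control, and higher levels of 0. Cyp8b1 and Cyp7b1 fell most, 5.35-fold and 5.26-fold, followed by Baat at 2.65-fold, Hsd3b7 at 2.09-fold and Slc27a5 at 1.61-fold. The first enzymes of both routes, Cyp7a1 and Cyp27a1, were not among the genes that fell. A gene was called at a limma adjusted p under 0.05, with adjustment over all 18820 genes. In this comparison 7.9 percent of all genes were called lower and 13.6 percent higher. The knockouts lay below every liver labelled control for the same 5 genes, as they did for 20.3 percent of all genes. The median difference was -0.75 over the 10 genes and -0.045 over all genes. In bulk liver, fewer cells of a type and less RNA per cell cannot be told apart.

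Cyp7a1, the gatekeeper of the classic route, had 7.66, 8.59 and 8.38 in the NEMO/JNK knockouts, against 7.64, 7.88 and 7.17 in livers labelled control. Knockouts 2 and 3 stood above all livers labelled control and knockout 1 stood among them. The difference of 0.65 (SE 0.26) did not pass the adjustment (adjusted p = 0.112). Without knockout replicate 1 it was 0.92 with an adjusted p of 0.0248, and over its 14 alternatives the adjusted p ran from 0.0248 to 0.534. Cyp27a1, which opens the alternative route, had 10.52, 10.54 and 10.48 in knockouts, against 10.21, 10.23 and 10.62 in livers labelled control. These groups overlapped, with a difference of 0.16 (95 percent interval -0.16 to 0.48, adjusted p = 0.441) that became -0.16 when each array was centred on its median.

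Cyp7b1, which follows Cyp27a1 in the alternative route, had 7.5, 7.37 and 7.27 in the NEMO/JNK knockouts, against 10.21, 8.9 and 10.22 in livers labelled control. The knockouts were close together and all below the lowest of the others. Cyp7b1 fell by 2.4 (SE 0.32, adjusted p = 0.00126). Hsd3b7, a dehydrogenase shared by both routes, had 9.01, 9.07 and 9.2 in knockouts, against 10.14, 10.09 and 10.24 in livers labelled control. Both groups were close together, with SDs of 0.09 and 0.08, and did not overlap. Hsd3b7 fell by 1.06 (SE 0.12, adjusted p = 0.00049). Its dimmer probe set averaged 5.52 ± 0.11 in knockouts and 6.21 ± 0.42 in livers labelled control (SD, n = 3 each). Akr1d1, the reductase of the sterol ring, had 9.49, 9.8 and 9.46 in knockouts, against 9.17, 9.73 and 9.64 in livers labelled control. The groups overlapped and the difference was 0.07 (95 percent interval -0.33 to 0.47, adjusted p = 0.799), or -0.26 with centred arrays.

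Cyp8b1, the enzyme that directs the product toward cholic acid, had 7.17, 8.54 and 6.94 in the NEMO/JNK knockouts, against 10.16, 9.72 and 10.02 in livers labelled control. Knockout 2 was the highest of its group and still lay below every liver labelled control. Cyp8b1 fell by 2.42 (SE 0.37, adjusted p = 0.00231), and the call held in all 14 alternatives. Amacr had 8.92, 8.49 and 8.49 in knockouts, against 8.89, 8.84 and 9.04 in livers labelled control. The first knockout stood among the livers labelled control, and the difference of -0.29 did not pass (adjusted p = 0.203). With centred arrays it was -0.61 with an adjusted p of 0.0113, within a range of 0.0113 to 0.449 over 14 alternatives.

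Both conjugation enzymes fell. Slc27a5, the bile acid coenzyme A ligase, had 9.74, 10.1 and 9.91 in the NEMO/JNK knockouts, against 10.32, 10.69 and 10.8 in livers labelled control. The groups did not overlap and Slc27a5 fell by 0.68 (SE 0.16, adjusted p = 0.0166). That call was lost without knockout replicate 1 (0.0619), knockout replicate 3 (0.0556), control replicate 2 (0.0505) or control replicate 3 (0.0585), and its adjusted p ran from 0.00212 to 0.0619 over 14 alternatives. Baat, the conjugating acyltransferase, had 7.98, 8.17 and 8.32 in knockouts, against 9.39, 9.74 and 9.56 in livers labelled control. The highest knockout lay more than 1 log2 unit below the lowest liver labelled control. Baat fell by 1.41 (SE 0.14, adjusted p = 0.000335), with an adjusted p between 5.45e-05 and 0.00202 over 14 alternatives.

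Nr0b2, the corepressor, had 7.39, 7.14 and 6.85 in the NEMO/JNK knockouts, against 7.21, 8.23 and 8.39 in livers labelled control. Control replicate 1 stood among the knockouts and the other two stood above them. The difference of -0.82 (SE 0.29) did not pass (adjusted p = 0.0781). It passed under 4 of 14 alternatives, namely quantile normalisation (0.0426), centred arrays (0.00973), array weights (0.0172) and without control replicate 1 (0.0059), with the highest adjusted p at 0.218. Centring each array moved the median of all genes to -0.371 in this comparison and raised the share of genes called lower to 47.5 percent, with 8.34 percent higher.

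Other genes of the pathway moved in both directions. Of 14 further bile acid enzymes measured, 5 fell and 2 rose, with a median of -0.27. Over all genes 7.9 percent were called lower and 13.6 percent higher. Akr1c14, a hydroxysteroid dehydrogenase, had 8.84, 9.59 and 9.2 in the NEMO/JNK knockouts, against 10.52, 10.37 and 10.49 in livers labelled control (adjusted p = 0.00192). Scp2, the peroxisomal thiolase of side-chain shortening, fell by 0.98 (adjusted p = 0.000755). Cyp46a1, a cholesterol hydroxylase best known from neurons, fell by 1.87 (adjusted p = 0.000647). Hsd17b6, a dehydrogenase of steroids and retinoids, had 11.56, 11.65 and 11.65 in knockouts, against 8.85, 9.65 and 9.61 in livers labelled control. It rose by 2.26 (SE 0.21, adjusted p = 0.000227), so that the fall did not extend over the whole group of enzymes.

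Of 17 sensors and regulators of bile acid synthesis measured, 2 rose and 1 fell. These counts lie near the 13.6 percent of all genes called higher and the 7.9 percent called lower. Nr1h4, which encodes the bile acid receptor FXR, had 8.53, 8.45 and 8.96 in the NEMO/JNK knockouts, against 9.57, 9.63 and 9.54 in livers labelled control. It fell by 0.93 (SE 0.15, adjusted p = 0.00314). Vdr, the vitamin D receptor, which also binds secondary bile acids, rose by 1.64 (adjusted p = 0.000251), and the coactivator Ppargc1a rose by 0.91 (adjusted p = 0.0151). Of 13 transporters and other known FXR targets, 5 rose and 3 fell, so that the members moved in both directions. Slc51b, a subunit of the basolateral bile acid exporter, had 8.44, 8.47 and 7.75 in knockouts, against 4.21, 5.43 and 4.67 in livers labelled control. Slc51a, the other subunit, was not called, with 3.58, 3.37 and 2.87 in knockouts, against 3.77, 3.66 and 3.48 in livers labelled control. Slc51b rose 11-fold (adjusted p = 0.000189), Fgf21, a hepatic hormone, rose 2.3-fold (0.00304), Apoc2, an apolipoprotein, rose 1.61-fold (0.0135), and the uptake carrier Slco1a1 fell by 4.71 (0.00103). Slco1a1 is also counted among the male-biased genes below.

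**Figure D2:**
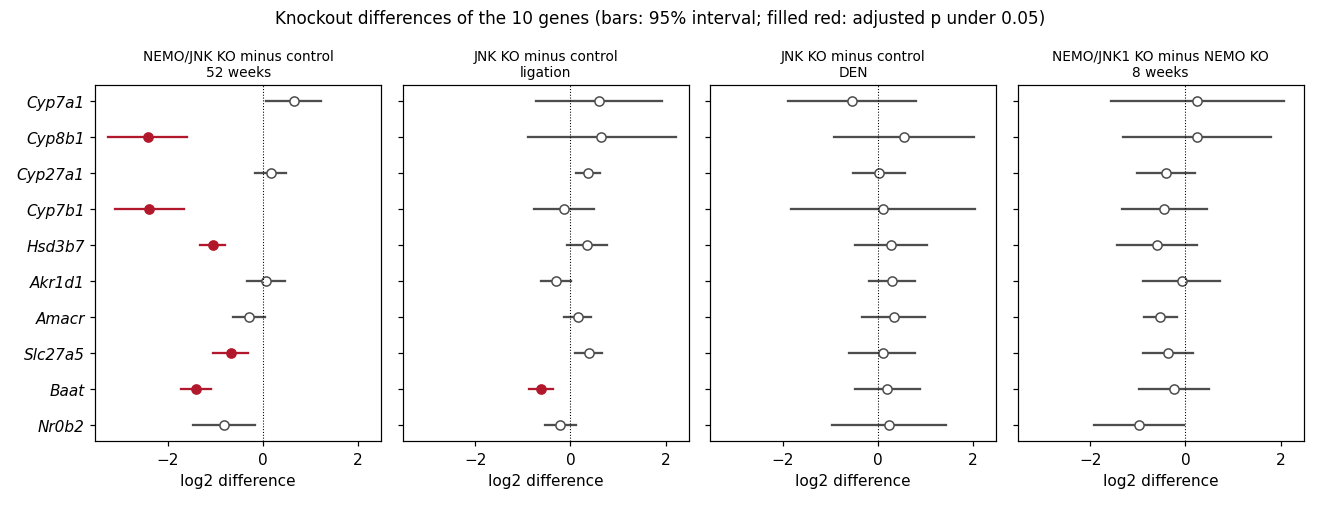
Log2 difference (horizontal axes) of each of the 10 genes in the 4 knockout comparisons, with NEMO/JNK, JNK or NEMO/JNK1 knockout minus livers labelled control or NEMO knockout. Circles are estimates from 3 against 3 livers, bars are 95 percent intervals, and filled red circles passed an adjusted p under 0.05. Filled circles stand at 5 genes at 52 weeks and at Baat after ligation, and at none after DEN or at 8 weeks.

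Markers of other cell types differed between the same livers of 52 weeks, where 13.6 percent of all genes were called higher and 7.9 percent lower. All 10 measured cholangiocyte markers rose, and their mean level was 7.84 to 8.33 in the NEMO/JNK knockouts and 4.46 to 5.15 in livers labelled control. Of 11 macrophage markers 9 rose, with means of 8.52 to 9.88 in knockouts and 7.46 to 8.04 in livers labelled control. Of 8 T and NK cell markers 5 rose, with means of 5.01 to 5.69 in knockouts and 4.1 to 4.67 in livers labelled control, and of 6 B and plasma cell markers 3 rose, with means of 6.48 to 7.29 and 4.48 to 6.45 in the same order. Stellate cell and sinusoidal endothelial lists of 10 and 8 genes each had 1 gene higher and 1 lower. Of 10 hepatocyte markers 0 rose and 1 fell, Serpina1c, and their mean was 12.17 to 12.31 in knockouts and 12.13 to 12.43 in livers labelled control. Of 14 acute phase genes 1 rose and 1 fell. The part of these cell types in the levels of the bile acid genes was not tested.

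Cyp7b1 is known to be higher in male than in female mouse liver, and other genes with that bias were therefore read beside it. Of 12 male-biased liver genes measured, 11 fell in the NEMO/JNK knockouts and 0 rose, with a median of -3.07. The shares over all genes were 7.9 percent lower and 13.6 percent higher. Mup21, a major urinary protein gene, had 3.38, 4 and 3.38 in knockouts, against 8.27, 7.81 and 8.29 in livers labelled control. It fell by 4.54 (adjusted p = 1.88e-05), and Mup3 fell by 4.3, Nudt7 fell by 3.23 and Cyp2d9 fell by 2.47 (adjusted p = 0.000108, 5.59e-05 and 0.000114). Of 11 female-biased genes 1 rose, Fmo2 by 2.49 (adjusted p = 4.39e-05), and 0 fell. The sex chromosome genes of these 6 livers did not differ, with 0 of 4 called, and their Xist values lay within the 2.16 to 3.87 given above. The part of the male-biased pattern in the Cyp7b1 difference was not tested.

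**Figure D3:**
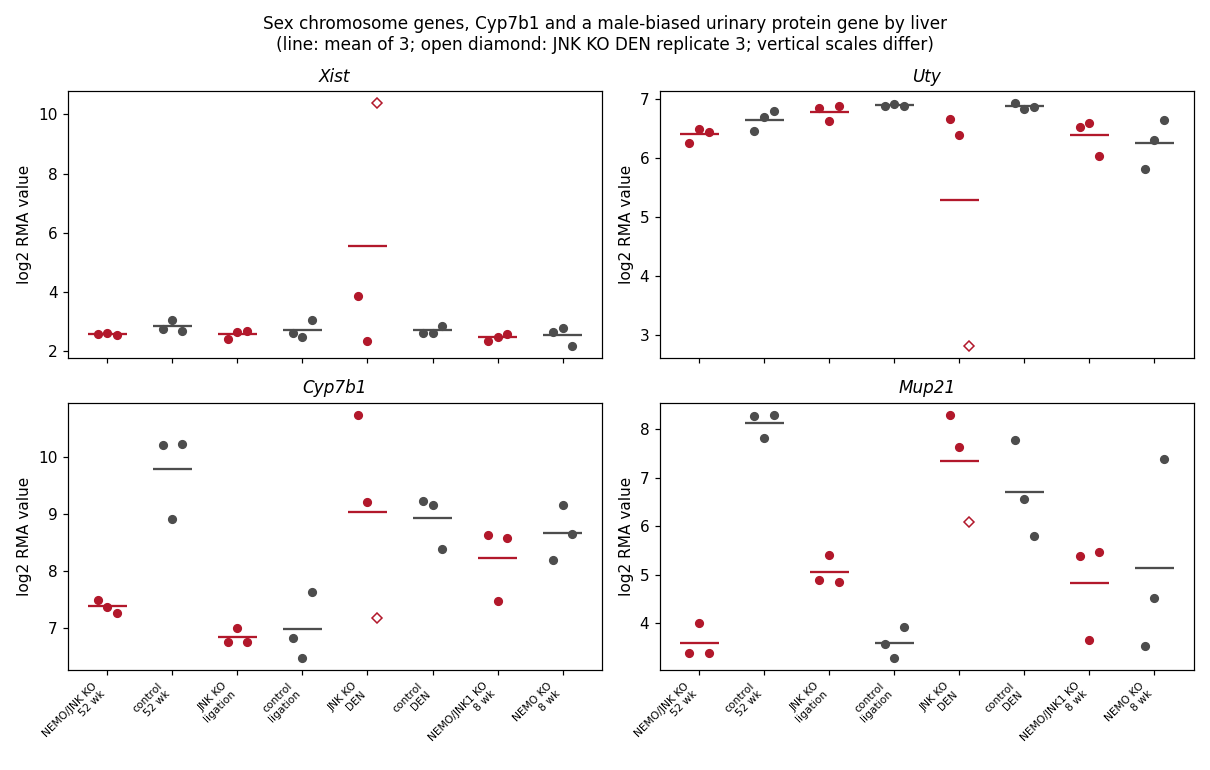
Log2 expression (vertical axes, which differ in scale) of Xist, Uty, Cyp7b1 and Mup21 in each of the 24 livers by group. Points are livers, lines are means of 3, and the open diamond is JNK knockout replicate 3 after DEN, with Xist at 10.38, Uty at 2.81 and Cyp7b1 at 7.17. In the NEMO/JNK knockouts at 52 weeks Cyp7b1 and Mup21 are both low while Xist and Uty lie in the range of the other livers.

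Cyp7a1 is known to cycle over the day, and clock genes were read for that reason. Of 14 measured, 6 rose and 5 fell in the NEMO/JNK knockouts at 52 weeks. The shares over all genes were 13.6 percent higher and 7.9 percent lower. Arntl, which encodes the activator BMAL1, had 6.32, 6.04 and 5.94 in knockouts, against 7.34, 7.56 and 7.48 in livers labelled control. Per3, a period gene that peaks at another time of day than Arntl, had 5.32, 6.13 and 6.11 in knockouts, against 4.27, 4.54 and 4.51 in livers labelled control. Arntl fell by 1.36 (adjusted p = 0.000338), Nfil3 by 2.05 (0.00108) and Cry1 by 0.79 (0.00222), and Per3 rose by 1.42 (0.00243). The labels give no hour of collection, and the part of the time of day in the levels of Cyp7a1 or the other genes was not tested.

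**Figure D4:**
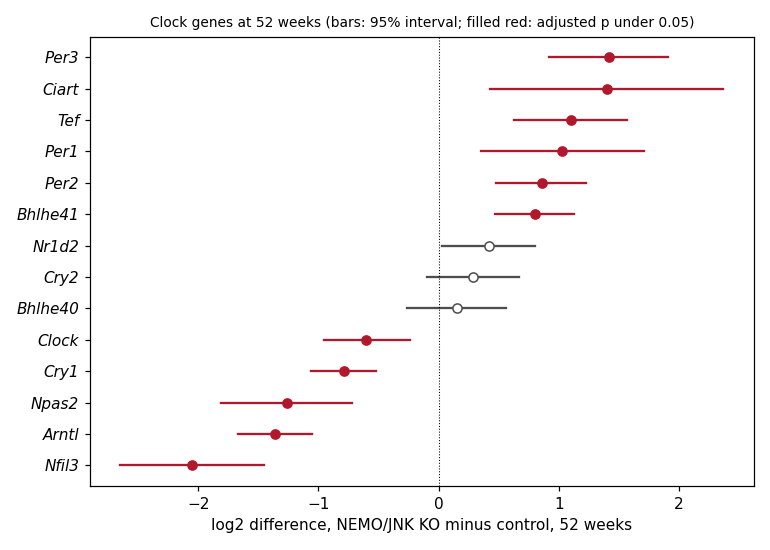
Log2 difference (horizontal axis) of 14 clock genes in NEMO/JNK knockouts minus livers labelled control at 52 weeks. Circles are estimates from 3 against 3 livers, bars are 95 percent intervals, and filled red circles passed an adjusted p under 0.05. Filled circles to the right mark 6 genes that rose, among them Per3 at 1.42, and those to the left mark 5 that fell, among them Arntl at -1.36.

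After bile duct ligation 1 of the 10 genes differed between JNK knockouts and livers labelled control. Baat had 8.63, 8.55 and 8.39 in JNK knockouts, against 9.12, 9.22 and 9.09 in livers labelled control. The groups did not overlap, and Baat fell by 0.62 (SE 0.11, 1.53-fold, adjusted p = 0.0402). In this comparison 0.558 percent of all genes were called lower and 0.797 percent higher. The Baat call was lost when all 24 arrays were fitted together (0.401) and without any knockout (0.12, 0.158 and 0.156 for replicates 1, 2 and 3), control replicate 1 (0.116) or control replicate 2 (0.0663). Its difference lay between -0.67 and -0.55 over 15 alternatives, with an adjusted p between 0.0158 and 0.401.

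Cyp27a1 and Slc27a5 stood higher in every ligated JNK knockout than in any ligated liver labelled control without passing the test. Cyp27a1 had 10.07, 10.19 and 10.21 in JNK knockouts, against 9.67, 9.92 and 9.77 in livers labelled control, a difference of 0.37 (SE 0.11, adjusted p = 0.171). Slc27a5 had 10.26, 10.21 and 10.33 in JNK knockouts, against 9.9, 9.68 and 10.06 in livers labelled control, a difference of 0.39 (SE 0.12, adjusted p = 0.198). Such separation upward was seen in 9.95 percent of all genes and downward in 10.7 percent.

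The remaining genes overlapped between the ligated groups, and some varied far more among the livers labelled control. Cyp7a1 had 8.43, 8.15 and 8.14 in JNK knockouts, against 6.34, 7.51 and 9.08 in livers labelled control. Cyp8b1 had 7.06, 7 and 7.13 in JNK knockouts, against 6.59, 4.71 and 7.94 in livers labelled control. The SDs of the 10 genes ran from 0.02 to 0.24 in JNK knockouts and from 0.07 to 1.62 in livers labelled control. The differences of 0.6 for Cyp7a1 and 0.65 for Cyp8b1 had 95 percent intervals of -0.73 to 1.93 and -0.9 to 2.21. Cyp7b1 had 6.75, 7.01 and 6.76 in JNK knockouts, against 6.82, 6.48 and 7.64 in livers labelled control, so that both ligated groups were low. Hsd3b7 had 9.5, 9.46 and 9.53 in JNK knockouts, against 8.92, 8.95 and 9.58 in livers labelled control. Its difference of 0.35 (adjusted p = 0.437) was 0.57 with an adjusted p of 0.0388 without control replicate 3, the lower end of a range up to 0.862 over 15 alternatives. Nr0b2 differed by -0.21, Akr1d1 by -0.3 and Amacr by 0.15, with adjusted p-values of 0.562, 0.37 and 0.654.

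The third ligated liver labelled control shared the identifier prefix TW187 with all 3 JNK knockouts, while its other two carried TW128. The labels do not say what a prefix stands for. Cyp7a1 averaged 6.92, Cyp8b1 5.65 and Cyp7b1 6.65 in the TW128 livers, against 9.08, 7.94 and 7.64 in the TW187 liver labelled control. With the prefix as a block, which leaves 1 liver labelled control to set against the 3 knockouts, the differences became -0.84 for Cyp7a1, -0.88 for Cyp8b1 and -0.08 for Hsd3b7, opposite in sign to those given above. Their adjusted p-values were 0.458, 0.62 and 0.862. Baat differed by -0.56 in that fit, with an adjusted p of 0.189, and Cyp27a1 by 0.38, with an adjusted p of 0.383.

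**Figure D5:**
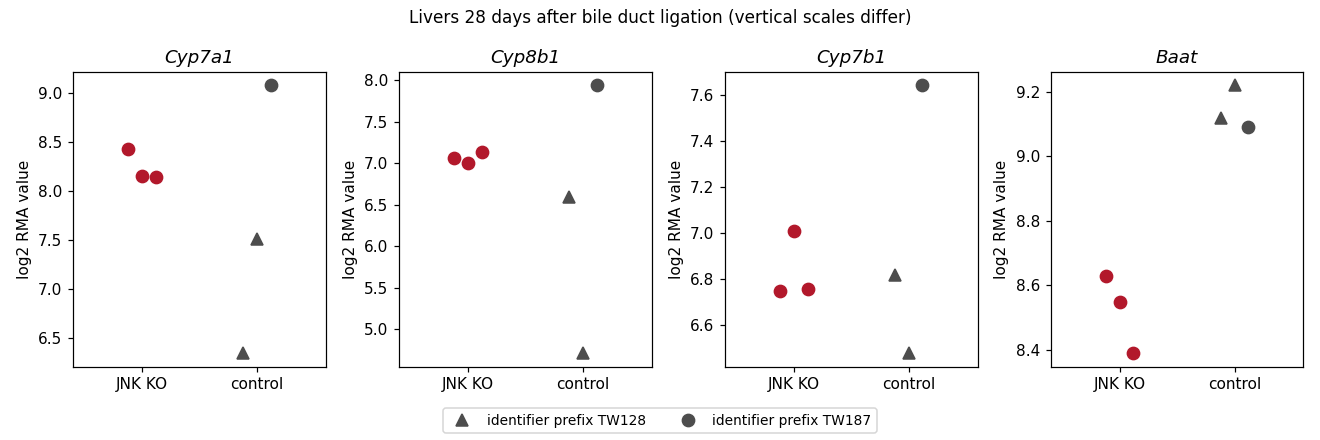
Log2 expression (vertical axes, which differ in scale) of Cyp7a1, Cyp8b1, Cyp7b1 and Baat in the 3 JNK knockout livers and the 3 livers labelled control after ligation. Triangles mark the identifier prefix TW128 and circles TW187. The TW187 liver labelled control lies above all 3 JNK knockouts for each gene, while the TW128 livers lie below them for Cyp7a1 and Cyp8b1 and above them for Baat.

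After ligation 0.797 percent of all genes were called higher and 0.558 percent lower in the JNK knockouts. Of 14 further bile acid enzymes measured, 1 rose and 0 fell. It was Ch25h, a cholesterol hydroxylase, with 6.16, 5.39 and 5.64 in JNK knockouts, against 4.63, 4.34 and 3.83 in livers labelled control. Ch25h rose by 1.46 (SE 0.25, adjusted p = 0.0377). None of 17 sensors and regulators was called. Klb, the coreceptor of fibroblast growth factor signalling to Cyp7a1, differed by 0.6 (adjusted p = 0.164), and Nr1h4 by -0.36 (adjusted p = 0.198). Nr1i2, a receptor of the same list, had 8.08, 8.07 and 8.05 in JNK knockouts, against 8.66, 9.04 and 8.54 in livers labelled control. Among 13 FXR targets Fgf21 rose by 1.12 (adjusted p = 0.0163). Of 12 male-biased genes 2 rose and 0 fell, Mup21 and Mup3 by 1.47 and 2.68 (adjusted p = 0.0183 and 0.0379). Of 14 acute phase genes 2 rose and 0 fell, Saa3 and Crp by 2.71 and 0.76 (adjusted p = 0.00292 and 0.0275). Of 14 clock genes and 11 female-biased genes 0 were called. The median difference was -0.32 over the clock genes and -0.05 over the female-biased genes, against -0.002 over all genes. Some clock genes did not overlap between the ligated groups, in both directions, as 9.95 percent of all genes did upward and 10.7 percent downward. The part of the time of day in the ligated livers was not tested. Of 10 cholangiocyte markers 1 rose, Muc1, with list means of 6.57 to 7.23 in JNK knockouts and 5.19 to 6.43 in livers labelled control. Hepatocyte markers averaged 12.36 to 12.39 in JNK knockouts and 12.28 to 12.36 in livers labelled control, with 0 of 10 called. Of 10 stellate cell genes 1 rose, Acta2, and 1 fell, Lrat, and of 8 sinusoidal endothelial genes 1 fell, Lyve1. The part of these cells in the Baat difference was not tested.

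After DEN none of the 10 genes was called between JNK knockouts and livers labelled control, and none reached an unadjusted limma p of 0.05. The same test called 0 percent of all genes, and 781 of 18820, or 4.15 percent, had an unadjusted p under 0.05. The smallest adjusted p among the 10 genes was 0.985. Their differences ran from -0.55 for Cyp7a1 to 0.54 for Cyp8b1, with a median of 0.22 over the 10 genes and -0.02 over all genes. Intervals were wide for some hydroxylases, from -1.82 to 2.05 for Cyp7b1 and from -1.9 to 0.8 for Cyp7a1. A difference of 1 log2 unit in either direction for Cyp7b1, or a fall of 1 for Cyp7a1, lay within them. The interval of Cyp27a1 was narrower, from -0.52 to 0.56. All 10 genes overlapped between the groups, and 9.47 percent of all genes did not.

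JNK knockout replicate 3, the liver with high Xist, set much of the spread of Cyp7b1 and Cyp7a1, though not that of most of the other genes. Cyp7b1 had 10.73, 9.21 and 7.17 in JNK knockouts, against 9.22, 9.16 and 8.39 in livers labelled control, with replicate 3 the lowest of the 6. Cyp7a1 had 7.68, 8.32 and 10.05 in JNK knockouts, against 9.11, 9.64 and 8.96 in livers labelled control, with replicate 3 the highest of the 6. Without it Cyp7a1 differed by -1.23 (SE 0.28), with an unadjusted limma p of 0.00513 and an adjusted p of 0.997. Cyp7b1 differed by 1.05 (SE 0.49, adjusted p = 0.997). The other genes differed without it by 0.59 for Cyp8b1, 0 for Cyp27a1, 0.21 for Hsd3b7, 0.13 for Akr1d1, 0.25 for Amacr, -0.1 for Slc27a5, 0.21 for Baat and 0.57 for Nr0b2. The lowest adjusted p among the 10 was 0.997. Without that liver 0 genes were called over all genes, and 605 had an unadjusted p under 0.05.

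The other genes also varied within the DEN groups. In JNK knockout replicate 2 Hsd3b7 stood at 9.07, Slc27a5 at 9.72, Amacr at 8.18 and Baat at 8.84, each the lowest of the 3 JNK knockouts. In JNK knockout replicate 1 the same genes stood at 10.16, 10.62, 9.16 and 9.59. Among livers labelled control replicate 1 was the highest for Hsd3b7, Slc27a5, Amacr and Baat, at 9.88, 10.55, 8.74 and 9.55. Nr0b2 had 8.06, 6.48 and 6.28 in JNK knockouts, against 6.08, 7.25 and 6.77 in livers labelled control. Cyp8b1 had 9.93, 8.68 and 9.14 in JNK knockouts, against 9.94, 8.73 and 7.45 in livers labelled control. Cyp27a1 and Akr1d1 averaged 10.2 ± 0.37 and 9.48 ± 0.32 in JNK knockouts, against 10.19 ± 0.28 and 9.18 ± 0.25 in livers labelled control (SD, n = 3 each). No gene of the 16 lists was called after DEN.

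At 8 weeks none of the 10 genes was called between NEMO/JNK1 knockouts and NEMO knockouts, where the test called 0 percent of all genes. Of the 10 genes 2 had an unadjusted limma p under 0.05, as had 7.66 percent of all genes. Amacr had 8.54, 8.33 and 8.2 in NEMO/JNK1 knockouts, against 8.89, 8.72 and 9.05 in NEMO knockouts. These groups did not overlap, with a difference of -0.53 (SE 0.15, adjusted p = 0.602), a separation downward seen in 7.66 percent of all genes. Nr0b2 had 7.43, 6.59 and 7.12 in NEMO/JNK1 knockouts, against 8.12, 8.72 and 7.23 in NEMO knockouts. The third NEMO knockout lay among the NEMO/JNK1 knockouts, and the difference was -0.97 (SE 0.4, adjusted p = 0.647). All NEMO/JNK1 knockouts carried the prefix TW187 and all NEMO knockouts TW51, so that prefix and genotype cannot be told apart.

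Individual livers differed widely at 8 weeks. Cyp7a1 had 8.78, 8.1 and 7.54 in NEMO/JNK1 knockouts, against 8.09, 6.22 and 9.36 in NEMO knockouts, an SD of 1.58 in the NEMO knockouts. Cyp8b1 had 9.22, 7.53 and 7.17 in NEMO/JNK1 knockouts, against 7.81, 6.77 and 8.62 in NEMO knockouts. Cyp7b1 had 8.63, 7.48 and 8.57 in NEMO/JNK1 knockouts, against 8.19, 9.16 and 8.65 in NEMO knockouts. The 95 percent intervals of these 3 differences were -1.57 to 2.07, -1.31 to 1.79 and -1.34 to 0.45. Hsd3b7, Slc27a5, Cyp27a1 and Baat differed by -0.6, -0.36, -0.4 and -0.24, and Akr1d1 by -0.08. Of the 10 differences 8 were below 0, with a median of -0.38. No gene of the 16 lists was called at 8 weeks.

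Ligated livers were also set against DEN livers of the same label, a comparison of different experiments in which ages are not given. In livers labelled control Cyp7b1 had 6.82, 6.48 and 7.64 after ligation, against 9.22, 9.16 and 8.39 after DEN. It fell by 1.95 (SE 0.33, adjusted p = 0.0315), as the 1 member called, while 0.739 percent of all genes were called lower and 1.74 percent higher. That call was lost when all 24 arrays were fitted together (0.0718), with the prefix as a block (-1.28, 0.347), and without control replicate 1 (0.147) or 2 (0.073) of the ligation or control replicate 1 (0.0802), 2 (0.109) or 3 (0.0505) of DEN. Over its 15 alternatives the adjusted p ran from 0.00861 to 0.347. Cyp8b1 had 6.59, 4.71 and 7.94 after ligation, against 9.94, 8.73 and 7.45 after DEN, a difference of -2.3 (SE 0.86, adjusted p = 0.204). Cyp7a1 differed by -1.6 (adjusted p = 0.206), or -2.31 with an adjusted p of 0.0189 without control replicate 3 of the ligation, where its adjusted p ran up to 0.953 over 15 alternatives. Nr0b2 was at 7.42, 7.73 and 7.41 after ligation, above 6.08, 7.25 and 6.77 after DEN, without passing (0.82, adjusted p = 0.167). Separation of that kind upward was seen in 12.8 percent of all genes.

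In JNK knockouts Cyp8b1 had 7.06, 7 and 7.13 after ligation, against 9.93, 8.68 and 9.14 after DEN. It fell by 2.18 (SE 0.29, adjusted p = 0.0296) and was the 1 member called, where 0.313 percent of all genes were called lower and 0.77 percent higher. Without the DEN liver with high Xist the Cyp8b1 difference was -2.24 and its adjusted p 0.0779. The call was also lost with all 24 arrays in the fit (0.145) and without JNK knockout replicate 1 (0.18), 2 (0.145) or 3 (0.151) of the ligation, and its adjusted p ran from 0.000733 to 0.18 over 14 alternatives. Cyp7b1 had 6.75, 7.01 and 6.76 after ligation, against 10.73, 9.21 and 7.17 after DEN. Its difference of -2.2 (adjusted p = 0.291) was -3.13 with an adjusted p of 0.0554 without the liver with high Xist. Baat had 8.63, 8.55 and 8.39 after ligation, against 9.59, 8.84 and 9.19 after DEN, a difference of -0.68 (adjusted p = 0.189), which was -0.87 with an adjusted p of 0.0257 without JNK knockout replicate 2 of DEN, in a range of 0.0132 to 0.508. Without the liver with high Xist it was -0.69, with an adjusted p of 0.356.

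The effect of the JNK knockout after ligation minus that after DEN was tested as an interaction over 12 livers. None of the 10 genes passed, and 0.0478 percent of all genes did. An unadjusted limma p under 0.05 was reached by 2 of the 10 and by 7.11 percent of all genes. They were Baat with -0.82 (SE 0.33, adjusted p = 0.636) and Akr1d1 with -0.6 (SE 0.26, adjusted p = 0.669). The interval of the difference for Cyp8b1 was -2.18 to 2.41 and that for Cyp7a1 was -0.87 to 3.17. Without the liver with high Xist none of the 10 genes passed either, with -0.82 for Baat, -0.44 for Akr1d1, 1.83 for Cyp7a1, 0.06 for Cyp8b1 and -1.18 for Cyp7b1 (adjusted p = 0.689, 0.75, 0.683, 0.993 and 0.72).

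Over the 8 groups Cyp8b1 had the widest range of group means, 3.56 on the log2 scale, followed by Cyp7b1 with 2.93. The ranges were 1.67 for Cyp7a1, 1.41 for Baat, 1.32 for Nr0b2, 1.25 for Hsd3b7, 0.83 for Slc27a5, 0.77 for Akr1d1, 0.73 for Cyp27a1 and 0.57 for Amacr. The median range over all genes was 0.47. Without the liver with high Xist the range of Cyp7b1 was 3.13, and those of the other genes kept these values. Livers of 1 group also varied more in these genes, with pooled SDs of 0.97 for Cyp8b1, 0.92 for Cyp7a1 and 0.79 for Cyp7b1, against a median of 0.2 over all genes. A moderated F test over the 8 groups called 3 of the 10 genes, Cyp7b1 (adjusted p = 0.00716), Baat (0.00894) and Cyp8b1 (0.0148), where 22.1 percent of all genes were called. Hsd3b7 stood at 0.0558 and Cyp7a1 at 0.432. Without the liver with high Xist the same 3 genes were called, Cyp7b1 at 0.000311, Baat at 0.0146 and Cyp8b1 at 0.0239. The count was 6 without JNK knockout replicate 2 after DEN and also without NEMO/JNK1 knockout replicate 1. It was 10 when arrays were weighted by their estimated quality. The 22.1 percent belongs to the main fit, and the shares of all genes called in these other fits are not given here. These counts are therefore not read as a result about the 10 genes.

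Both hydroxylases with wide ranges were highest in livers labelled control of 52 weeks and lowest in ligated livers, Cyp8b1 in those labelled control and Cyp7b1 in JNK knockouts. Cyp8b1 averaged 9.97 in livers labelled control of 52 weeks, then 9.25 in DEN-treated JNK knockouts, 8.71 in DEN-treated livers labelled control, 7.97 in NEMO/JNK1 knockouts and 7.73 in NEMO knockouts at 8 weeks, 7.55 in NEMO/JNK knockouts, 7.07 in ligated JNK knockouts and 6.41 in ligated livers labelled control. Cyp7b1 averaged 9.78, 9.04, 8.92, 8.67, 8.23, 7.38, 6.98 and 6.84, in the order livers labelled control of 52 weeks, JNK knockouts and livers labelled control after DEN, NEMO and NEMO/JNK1 knockouts at 8 weeks, NEMO/JNK knockouts, ligated livers labelled control and ligated JNK knockouts. Baat was highest in livers labelled control of 52 weeks at 9.56 and lowest in NEMO/JNK knockouts at 8.16, with ligated JNK knockouts next at 8.52. In these orders the livers of neighbouring groups overlapped for all 10 genes, except for Baat between ligated JNK knockouts and NEMO/JNK knockouts. Cyp7a1 had another order, highest after DEN in livers labelled control at 9.24 and lowest in livers labelled control of 52 weeks at 7.56. Nr0b2 was highest in NEMO knockouts at 8.02 and lowest in livers labelled control after DEN at 6.7. Without the liver with high Xist the DEN-treated JNK knockouts averaged 9.97 for Cyp7b1, which made them the highest group, 8 for Cyp7a1, 9.3 for Cyp8b1, 9.21 for Baat and 7.27 for Nr0b2.

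The genes whose levels ran most like each member over the 24 arrays were described by Pearson's r, and the arrays share groups. Cyp8b1 ran most like Akr1c14 (0.88), Cyb5b (0.87) and Fam107b (0.86). Cyp7b1 ran most like Hsd3b2, Pdilt and Ugt2b5 (0.89 each), and Cyp27a1 most like Axin2 (0.9), a target and inhibitor of Wnt signalling. Hsd3b7 had Qdpr (0.93), Haao (0.92) and Gcdh (0.91), and Slc27a5 had Aldh4a1 (0.93), Qdpr (0.92) and the urea cycle enzyme Otc (0.91). Baat had Map1lc3a (0.91), Gstk1 (0.9) and Aadat (0.89). For Amacr, Akr1d1 and Nr0b2 the highest values were 0.82 (Coq3), 0.8 (Nabp2) and 0.77 (Sec63). Cyp7a1 had no gene above 0.66, the value of Zfp395. For the same pairs over 23 arrays, without the liver with high Xist, the r of Cyp7a1 with Zfp395 was 0.58, of Cyp8b1 with Akr1c14 0.88, of Cyp27a1 with Axin2 0.91, of Cyp7b1 with Hsd3b2 0.9, of Hsd3b7 with Qdpr 0.93, of Slc27a5 with Aldh4a1 0.92, of Baat with Map1lc3a 0.92, of Amacr with Coq3 0.81, of Akr1d1 with Nabp2 0.83 and of Nr0b2 with Sec63 0.77.

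Nr0b2 was set against the other 9 genes liver by liver, as deviations from the group means over 24 livers, a choice made after the values were seen. Against Cyp7a1 Pearson's r was -0.49 (permutation p = 0.104, adjusted 0.585) and Spearman's rho -0.34 (permutation p = 0.2, adjusted 0.888), both from permutations within groups. Without the 2 livers farthest from the median of Nr0b2 the r was -0.31. Against Cyp8b1 r was -0.13 and rho -0.13, and against Akr1d1 0.4 and 0.42. None of the 9 relations passed the adjustment, the lowest adjusted p being 0.585. Over 23 livers, without the one with high Xist, none passed either. Cyp7a1 then had r of -0.39 and rho of -0.32 (permutation p = 0.142 and 0.243, adjusted 0.64 and 0.818). Akr1d1 had r of 0.56 and rho of 0.6 (permutation p = 0.0247 and 0.0182, adjusted 0.222 and 0.164), and r of 0.48 without the 2 livers farthest from the median of Nr0b2.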

How the data were processed

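RNA of 24 livers was labelled in a whole-transcript sense target assay and measured on Affymetrix arrays, per the labels' protocols. The authors deposited log2 expression levels for each probe set from RMA, which corrects background, normalises quantiles and summarises probes, per the submitters' processing notes. The program that ran RMA is not given in the sources used here. No detection call was used, and precision is limited by the number of arrays.

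Of 35556 probe sets, 21218 had 1 gene symbol, 1881 several and 12457 none. Those with 1 symbol stood for 18820 genes, each read from its probe set of highest mean on 24 arrays, and all were tested without a filter. Moderated linear models (limma 3.58.1, R 4.3.3) were fitted to the deposited log2 values, each with its own 6 arrays, the interaction with 12 and the F test with 24. Tests were two-sided, with Benjamini-Hochberg adjustment over all genes and a threshold of 0.05. An exact permutation test of 3 against 3 livers cannot give a p below 0.1, so single-gene p-values came from limma. The fits were tested on simulated data.

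The genes followed, the 16 gene lists and the tests were chosen with earlier results of these data known. All 10 genes were named in every comparison, with up to 4 called genes of a list by smallest p in each genotype comparison, or at most 2 by smallest unadjusted p in a list without a call, and the 3 genes with the highest correlation to each of the 10. Klb, Nr1h4 and Nr1i2, named after ligation, were an exception to the limit of 2. Male-biased, female-biased, clock and cell type lists came from general knowledge of mouse liver. Promoter stretches were taken from RefSeq, GRCm38.p6. Alternatives were quantile normalisation, centred arrays, a filter on dim genes, array weights, the mean of all probe sets, 1 fit of all arrays, blocks by replicate number and identifier prefix, and leaving out each liver.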

Additional observations from a re-analysis of the deposited data

How the results depend on the processing

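With 3 livers in a group, the spread of Cyp7a1, Cyp8b1 and Cyp7b1 limits what these comparisons can show. Over all comparisons 1070 recomputed differences of single genes were made, of which 968 kept their direction and side of the threshold, 26 lost a call, 11 gained one, 65 changed sign without a call in either fit and 0 changed sign with a call. At 52 weeks 5 genes were lower, and 6 under quantile normalisation, 7 with centred arrays and 6 with array weights. With centred arrays 47.5 percent of all genes were called lower. For the other counts of this paragraph the shares of all genes are not given here, and the counts are not read as a result about the 10 genes. Leaving out each liver in turn gave 4 to 6 lower and 0 to 1 higher at 52 weeks, 0 to 1 lower and 0 to 1 higher after ligation, 0 to 2 lower for ligation against DEN in livers labelled control, 0 to 2 in JNK knockouts, and 3 to 6 genes in the F test. The count of lower genes after ligation fell to 0 with all 24 arrays in 1 fit, with the replicate block and with the identifier prefix as a block. The count for ligation against DEN in livers labelled control likewise became 0 in those 3 fits. In JNK knockouts it became 0 with all 24 arrays or the replicate block and 3 with array weights. The F test called 3 genes, 5 with centred arrays and 10 with array weights. Replicate numbers were not taken to pair the mice. Deviations of livers with the same number correlated with r of 0.02 to 0.04 at 52 weeks, 0.36, 0.3 and 0.04 after DEN, 0.14, -0.07 and 0.04 after ligation and -0.07 to 0.01 at 8 weeks, so that in no comparison did every pair exceed 0.1. The replicate block gave Baat an adjusted p of 0.0924 after ligation, Cyp7b1 0.1 and Cyp8b1 0.0852 between injuries, and changed no call at 52 weeks. After DEN the pair with 0.04 was replicate 3, which holds the liver with high Xist. All 6 livers of 52 weeks correlated best with their own number, and 4, 3 and 0 of 6 after DEN, after ligation and at 8 weeks. With 3 livers in a group and r of 0.02 to 0.04 at 52 weeks, such counts do not settle whether mice were paired. The cause of these changes was not tested.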
